A study of Homo sapiens with 4 samples.

Results

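Interferon-stimulated genes were followed through chromatin accessibility data of OPM-2, an established human multiple myeloma cell line, in 4 ATAC-seq libraries. The set holds 44 named genes. A peak was counted for a member when the nearest protein-coding gene body to its summit, within 100 kb on hg38, was that member. Merging overlapping peaks of the 4 lists gave 122632 regions, of which 130 belonged to members. Cells were kept for 72 h with the vehicle DMSO, with 1 µM all-trans retinoic acid (ATRA), with 1 µM pomalidomide (POM), or with 1 µM of each agent (ATRA+POM). ATRA is a ligand of the nuclear retinoic acid receptors, and pomalidomide binds cereblon and directs the lymphoid factors IKZF1 and IKZF3 to degradation. Each condition has 1 library of 1 line, so no difference has a replicate check, no p-value is given, and whether a difference exceeds the spread between replicates could not be measured. In such bulk libraries a larger share of cells with an open site and a more open site in every cell cannot be told apart.

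Type I interferon acts through a cell surface receptor and the kinases JAK1 and TYK2, which pass the signal on to STAT2. STAT2 and IRF9 act in a complex that binds the interferon-stimulated response element (ISRE) near gene starts and turns on genes that block viral entry, translation and replication. The starts of such genes can be open before any interferon is present. ATAC-seq reads openness and not transcription.

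By role the members fall into 8 groups. IFIH1, STAT2, IRF9, IRF1 and IRF7 are sensors, signal carriers and transcription factors. ISG15, HERC5, HERC6 and USP18 belong to the ISG15 system. IFIT1, IFIT2, IFIT3 and IFIT5 bind viral RNA. OAS1, OAS2, OAS3 and OASL are oligoadenylate synthetases or relatives. MX1, MX2 and GBP1 are GTPases. BST2, IFITM1, IFITM2, IFITM3, LY6E and PLSCR1 act at membranes. PARP9, DTX3L and PARP14 work in ADP-ribosylation. The other 15 effectors are IFI44, IFI44L, ISG20, SAMD9, SAMD9L, XAF1, RSAD2, IFI6, IFI27, IFI35, IFI16, TRIM22, SP110, EPSTI1 and CMPK2.

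The 5 promoter sequences below show how the members carry the ISRE and were chosen for different accessibility. They are the 300 bases around the gene start in the RefSeq table of GRCh38.p14, which held 35 of the 44 members, written 5′ to 3′ on the gene's strand. Capitals mark matches to the ISRE letters, GAAA followed by any 2 bases and a second GAAA, on either strand. PLSCR1 (chr3:146544558-146544857, minus strand) had a start region that was higher in both libraries with POM. IFIT5 (chr10:89414318-89414617, plus strand) had one that was lower in both. ISG15 (chr1:1013247-1013546, plus strand) has a pair of overlapping matches and a start peak in every list. IFI44 (chr1:78649539-78649838, plus strand) lacked a start peak in ATRA+POM. IFIT3 (chr10:89327747-89328046, plus strand) has 2 matches and no peak over them.
PLSCR1: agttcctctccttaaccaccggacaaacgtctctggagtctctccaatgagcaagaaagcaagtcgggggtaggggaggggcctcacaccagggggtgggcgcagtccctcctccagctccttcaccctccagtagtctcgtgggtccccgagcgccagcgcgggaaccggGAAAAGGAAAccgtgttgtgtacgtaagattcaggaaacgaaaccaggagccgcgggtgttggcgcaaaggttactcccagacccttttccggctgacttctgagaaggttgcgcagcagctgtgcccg
IFIT5: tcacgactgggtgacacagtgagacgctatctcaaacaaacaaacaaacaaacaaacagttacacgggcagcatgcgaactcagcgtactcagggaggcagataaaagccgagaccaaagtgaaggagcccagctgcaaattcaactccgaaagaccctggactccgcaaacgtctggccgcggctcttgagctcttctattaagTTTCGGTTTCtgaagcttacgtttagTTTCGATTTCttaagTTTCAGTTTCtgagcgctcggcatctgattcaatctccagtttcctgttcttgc
ISG15: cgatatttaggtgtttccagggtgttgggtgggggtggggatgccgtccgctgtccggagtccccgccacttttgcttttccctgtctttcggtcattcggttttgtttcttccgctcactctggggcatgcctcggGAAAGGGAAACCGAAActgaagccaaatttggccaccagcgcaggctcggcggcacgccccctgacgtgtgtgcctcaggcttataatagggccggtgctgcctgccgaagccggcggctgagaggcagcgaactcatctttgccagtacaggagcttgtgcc
IFI44: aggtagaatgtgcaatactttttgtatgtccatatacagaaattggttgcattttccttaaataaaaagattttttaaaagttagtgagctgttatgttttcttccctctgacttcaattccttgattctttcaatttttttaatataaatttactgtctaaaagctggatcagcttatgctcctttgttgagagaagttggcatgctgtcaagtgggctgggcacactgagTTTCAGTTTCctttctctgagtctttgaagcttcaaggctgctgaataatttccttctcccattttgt
IFIT3: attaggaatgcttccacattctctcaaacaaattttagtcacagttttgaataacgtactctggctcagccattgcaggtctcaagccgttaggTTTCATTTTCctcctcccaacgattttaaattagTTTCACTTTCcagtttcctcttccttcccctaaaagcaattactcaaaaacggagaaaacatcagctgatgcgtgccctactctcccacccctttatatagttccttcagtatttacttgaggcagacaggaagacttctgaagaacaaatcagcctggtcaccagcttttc

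Of the 35 member promoters, 22 (62.9%) held the ISRE letters, against 3.17% of 15812 promoters of the same length. The letters GGAA, any 2 bases and GAAA, a composite site for ETS and IRF factors named EICE, were in 9 member promoters (25.7%, against 2.50%). The letters TTCNNNGAA, the GAS site of interferon gamma responses, were in 10 (28.6%, against 6.98%). The Ikaros core TGGGAA was in 7 (20%), close to the 22.7% of all promoters. Both strands were searched, and GAS letters overlapped ISRE letters in IFITM1, EPSTI1, IFI27 and BST2, and EICE letters did so in DTX3L, PARP14 and HERC5. Member promoters were less rich in G and C than promoters at large (median 54.0% against 62.7%) and held a median of 8 CpG against 22. A match is a description of letters and not a bound site.

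The peaks around the ISRE letters show which of these elements lay in open chromatin. In 16 of the 22 genes a peak covered a match in at least 1 list, and in 15 it did so in all 4. The exceptions with no peak over any match in any list were IFIT3, OAS3, HERC5, IFI27, GBP1 and IFITM3. The PLSCR1 match lay 12 bp from the summit in POM and in ATRA+POM, 72 bp away in DMSO and 170 bp away in ATRA. The 2 ISG15 matches lay within 28 to 40 bp of the summit in every list. The IFI6 summit was 18 to 20 bp from its nearest match in all 4 lists.

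The peaks used numbered 76402 in DMSO, 76636 in ATRA, 69162 in POM and 85434 in ATRA+POM. A whole-number summit pileup, the number of reads stacked at a peak's summit, was recovered from the deposited fold and p-value. Its median was 30, 27, 15 and 22 reads in the same order, and the smallest called was 8, 8, 4 and 7, so the POM library was the shallowest. Pileups were divided by a scale, the median ratio to DMSO over 42930 regions in all 4 lists (0.874, 0.397 and 0.708 for ATRA, POM and ATRA+POM). Gene starts of all genes taken alone would give 0.882, 0.284 and 0.509, which adds 0.48 to every log2 ratio of POM or ATRA+POM to DMSO. Of 9 plasma cell markers, 8, 8, 9 and 9 had a peak at the gene start in DMSO, ATRA, POM and ATRA+POM. Among markers of other cell types, the B cell genes CIITA and BCL6 (2 of 5) and the T cell gene CD3E (1 of 3, at 89.4% to 97.7% of the rank scale by −log10 q-value) had one in all 4 lists. COL1A1 (1 of 5 markers of other tissues) had one in all lists but POM, and the monocyte markers CD14, LYZ and CSF1R had none in any list. No strand was given for CIITA, CD3E, COL1A1 and the plasma cell genes TNFRSF17, SLAMF7 and POU2AF1. For these a peak at either gene boundary counted, so it may not lie at the start.

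Members had 100 peaks in DMSO, 101 in ATRA, 91 in POM and 94 in ATRA+POM, or 0.131%, 0.132%, 0.132% and 0.110% of the list. This is 2.07 to 2.30 peaks per member, against 2.77 to 3.32 per gene over all 19974 protein-coding genes. A larger part of the member peaks lay at the gene start, meaning within 1 kb of it. There were 32, 30, 29 and 26 such peaks in DMSO, ATRA, POM and ATRA+POM, or 32.0%, 29.7%, 31.9% and 27.7% of member peaks, against 15.7%, 15.7%, 18% and 15.0% for all genes. The number of members with any peak was 40, 39, 39 and 36.

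The lower number of gene-start peaks in ATRA+POM came with peaks that overlapped those of other lists but had summits nearest to a neighbouring gene. Summits were up to 852 bp apart between lists at the IFIT1 start, 271 bp at IFIT5 and 272 bp at BST2. In that list the start peaks of IFIT1 and IFIT5 fell to LIPA, that of BST2 to MVB12A and that of SP110 to SP140. The start peak of IFIH1 fell to GCA, as it also did in ATRA and POM. Counting any peak at a member start whatever its nearest gene, which was chosen after these values were seen, covered 32, 32, 31 and 32 members. Of these, 29 were covered in all 4 lists. PARP9 and DTX3L share a start region, which the rule gives to DTX3L.

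No start peak was found in any list for 10 members. These are IRF7 and IFI27, which had no peak at all, IFIT3, OAS3, RSAD2, CMPK2, HERC5, GBP1, LY6E and IFITM3. GBP1 had a single peak, in ATRA 5.46 kb away with a pileup of 10. HERC5 had a single peak, in POM 5.72 kb away with a pileup of 5. LY6E had 1 region, 34.2 kb away, with pileups of 38, 34, 14 and 27 in DMSO, ATRA, POM and ATRA+POM. The start peak was in some lists for 5 members: IFI44 in all but ATRA+POM, IFIT2 in DMSO with a pileup of 15, IFITM2 in ATRA and ATRA+POM, PARP14 in all but ATRA, and SP110 in ATRA and ATRA+POM. For IFITM2, whose strand was not given, these are different regions at opposite gene boundaries. The summit lay 136 bp from a boundary in ATRA and 321 bp from the other in ATRA+POM, so they cannot both mark the start. For PARP14, an ATRA peak did cover the ISRE match near the start, but its summit lay 1448 bp from that match. Reads at the near-identical IFITM1, IFITM2 and IFITM3 genes, and at USP18, which has partial copies, can be shared between copies, so their values are uncertain.

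Ranks of the deposited −log10 q-value put member start peaks high in each list. On a scale where 100% is the strongest peak, the median member start peak stood at 84.0%, 84.5%, 82.4% and 86.8% in DMSO, ATRA, POM and ATRA+POM, against 90.7%, 90.7%, 84.8% and 88.4% for start peaks of all genes. Distal member peaks stood at 48.3%, 51.1%, 46.3% and 55.6%, against 45.6%, 45.6%, 47.0% and 47.9%. Relative to all genes the member start peaks were thus 6.69 and 6.15 points lower in DMSO and ATRA, and 2.43 and 1.59 points lower in POM and ATRA+POM.

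Members' regions were shared between lists more often than regions at large. Of the 130, 69 (53.1%) were in all 4 lists, against 35.0% of all regions. At gene starts the shares were alike, 27 of 32 (84.4%) against 82.4%. At distal regions the share was higher for members, 42 of 98 (42.9%) against 30.4%. Regions found in both POM lists and in neither other list numbered 4 (3.08%, against 6.05%), and regions found in DMSO and ATRA alone numbered 6 (4.62%, against 6.31%).

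POM was compared with DMSO, and ATRA+POM with ATRA, which asks the same question without and with the retinoid in libraries that are not shared. A scaled pileup ratio of at least 2 in either direction was taken as different. In POM vs DMSO, 11 of 74 member regions were higher, against 13.0% of all regions, and 4 were lower, against 8.93%. In ATRA+POM vs ATRA, 15 of 79 were higher, against 11.8%, and 2 were lower, against 8.47%. With the scale from gene starts, 17 were higher and 0 lower in POM vs DMSO (all regions 28.4% and 2.15%), and 23 were higher and 1 lower in ATRA+POM vs ATRA (26.5% and 1.76%). By the scale used throughout, the share of higher regions was near the background in POM vs DMSO (14.9% against 13.0%). It was above the background in ATRA+POM vs ATRA (19.0% against 11.8%). That excess depended on the limit and the scale. With a 1.5-fold limit 19 of 79 were higher, near the 23.7% of all regions. With the scale from gene starts the 23 of 79 lay nearer to the 26.5% of all regions. By that scale the 17 of 74 in POM vs DMSO lay below the 28.4% of all regions. The members' medians stood apart from those of all genes at gene starts rather than at distal regions.

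At gene starts of all genes the scaled pileup was lower in the libraries with POM, with a median log2 ratio of -0.48 in POM vs DMSO and -0.45 in ATRA+POM vs ATRA. Member gene starts had medians of -0.0029 (28 regions) and 0.11 (27 regions). Of the 28, 3 were at least 2-fold higher in POM vs DMSO, against 1.25% of gene starts, and 1 was lower, against 20.2%. Of the 27, 4 were higher in ATRA+POM vs ATRA, against 1.34%, and 1 was lower, against 17.9%. Distal member regions had medians of 0.10 (46 regions) and 0.07 (52 regions), beside 0.18 and 0.11 for all distal regions. Of the 46, 8 were higher in POM vs DMSO, against 15.7%, and 3 lower, against 6.30%. Of the 52, 11 were higher in ATRA+POM vs ATRA, against 13.9%, and 1 lower, against 6.57%. With the scale from gene starts the median over all gene starts is near 0 and the member starts lie above it by the same distance.

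**Figure D1:**
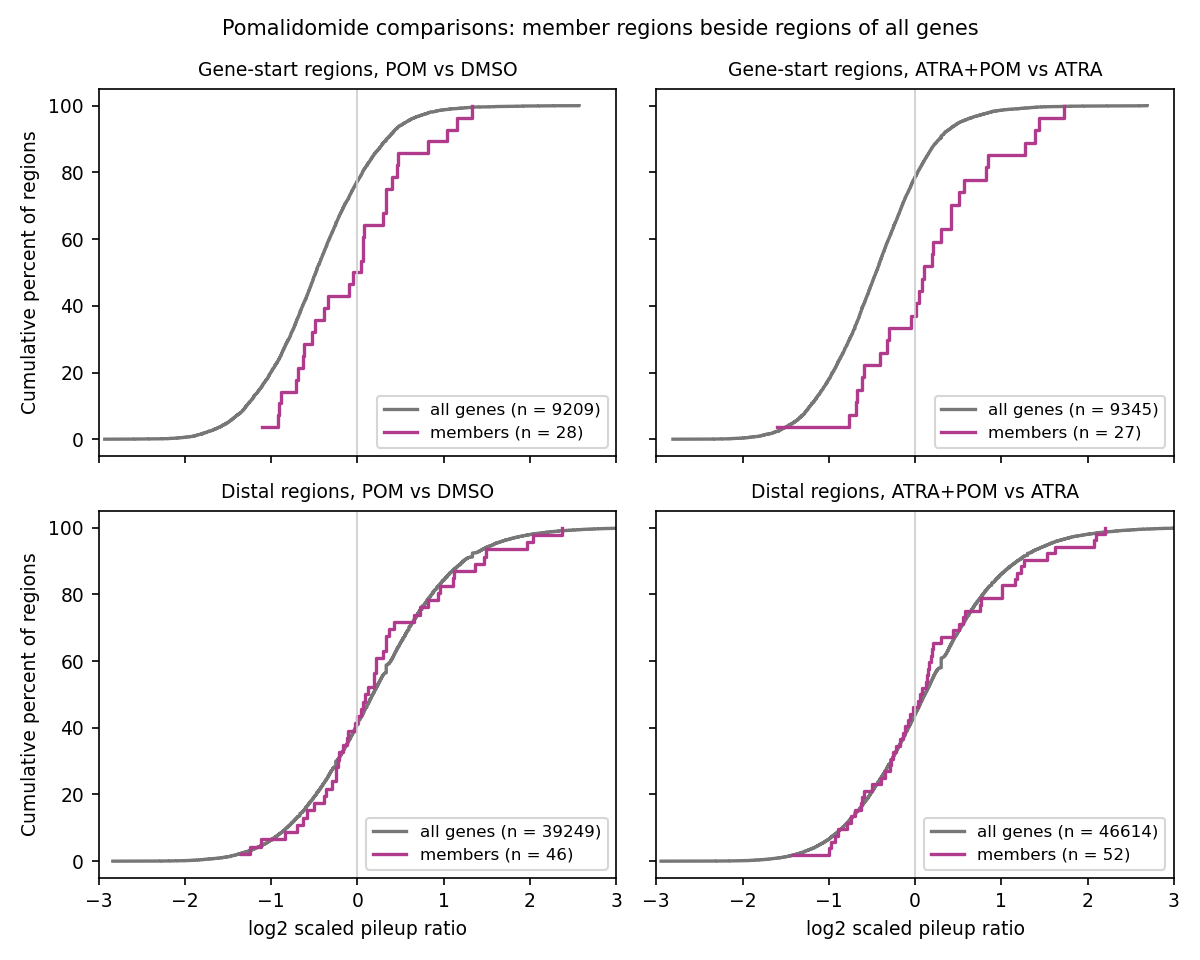
Cumulative percent of regions (vertical axis) against the log2 scaled pileup ratio (horizontal axis), for gene-start regions (top) and distal regions (bottom), in POM vs DMSO (left) and ATRA+POM vs ATRA (right), with 1 library per condition. The member curves lie to the right of the curves of all genes at gene starts (medians -0.0029 against -0.48 and 0.11 against -0.45) and close to them at distal regions.

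The size of this difference varied between tertiles of base composition and of signal level. Among gene starts in the lowest tertile of promoter GC (under 61.3%), 18 member regions had a median of -0.36 in POM vs DMSO, beside -0.40 for all such starts. In ATRA+POM vs ATRA, 17 member regions there had a median of 0.04, beside -0.34. In the middle tertile, 4 member regions had medians of 0.31 and 0.42, beside -0.46 and -0.45. The highest tertile held 1 member region, with -0.10 and -0.30, beside medians of -0.56 and -0.55. By DMSO pileup, the 18 member starts of the lowest tertile had a median of -0.20 in POM vs DMSO, beside -0.40 for all starts there. In ATRA+POM vs ATRA, 17 member starts of that tertile had a median of 0.08, beside -0.41. The middle and highest tertiles held 7 and 3 member starts. Their medians were 0.06 and 0.30 in POM vs DMSO, beside -0.57 and -0.45, and 0.11 and 0.21 in ATRA+POM vs ATRA, beside -0.52 and -0.42. Within the lowest GC tertile the difference between members and other starts was thus small in POM vs DMSO and 0.38 in ATRA+POM vs ATRA. The part of GC and of depth in the result was not tested further.

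Member starts with and without ISRE letters were also taken apart, where a promoter sequence was given. Start regions of members with a match had medians of 0.0048 (14 regions) in POM vs DMSO and 0.04 (13 regions) in ATRA+POM vs ATRA. Those without a match had -0.10 and 0.20 (9 regions each). Over all genes, starts with the letters had medians of -0.45 and -0.34, and starts without them -0.48 and -0.45.

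Across both comparisons, 69 member regions could be followed in all 4 lists. At least 2-fold higher in both were 10 (14.5%, against 6.89% of all regions), and lower in both were 0, against 4.59%. At gene starts 2 of 27 were higher in both, against 0.544%, and 0 lower, against 11.2%. At distal regions 8 of 42 (19.0%) were higher in both, against 8.58% of all distal regions, and 0 lower, against 2.83%. The 10 regions lie in or near 8 genes: SP110 with 3, and RSAD2, CMPK2, PLSCR1, HERC6, IFI16, IFI6 and IFIH1 with 1 each. In each of the 10 the POM and ATRA+POM values lay above those of both other libraries, which the choice of regions largely fixes.

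**Figure D2:**
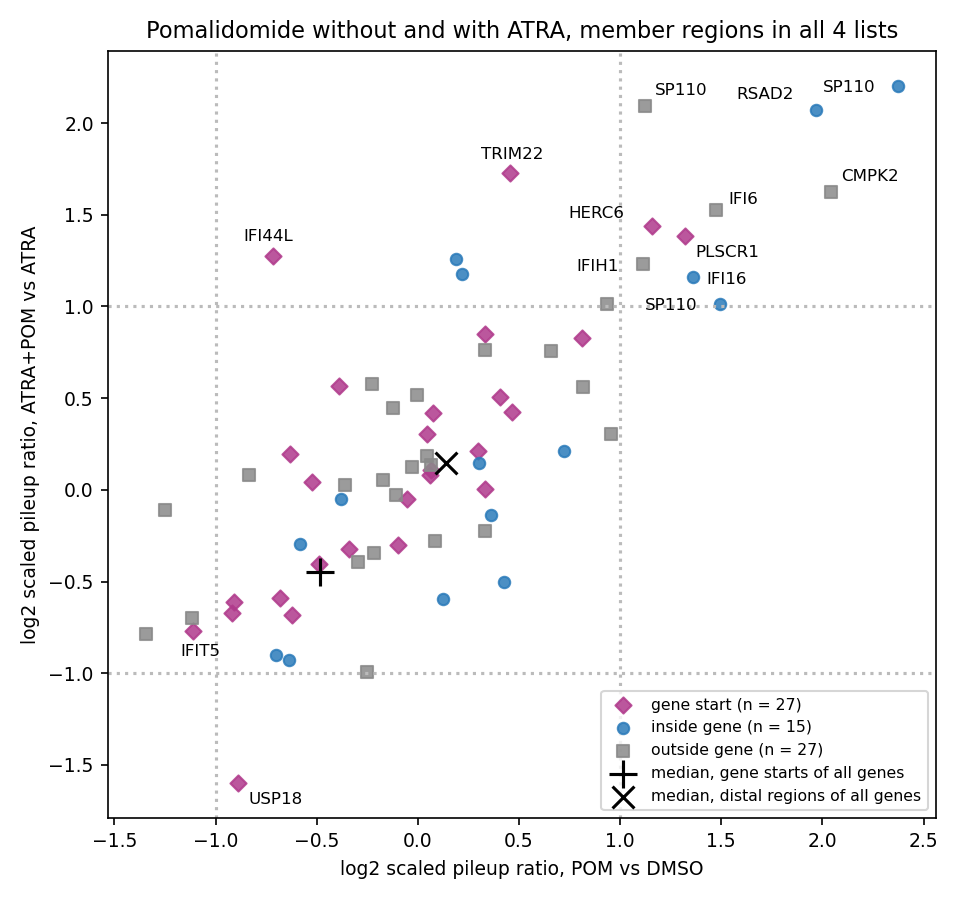
The log2 scaled pileup ratio in ATRA+POM vs ATRA (vertical axis) against that in POM vs DMSO (horizontal axis) for the 69 member regions called in all 4 lists, by position, with dotted lines at 2-fold. Regions of SP110, RSAD2 and CMPK2 lie farthest to the upper right, USP18 lies lowest, and the cross and plus mark the medians of all distal regions and all gene starts.

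RSAD2 encodes viperin, an enzyme that makes a chain-terminating nucleotide, and lies head to head with CMPK2, a mitochondrial nucleotide kinase gene. A region inside RSAD2, 11.8 kb downstream of its start (chr2:6877314-6878166), had summit pileups of 60 reads in DMSO, 56 in ATRA, 93 in POM and 191 in ATRA+POM. Scaled to DMSO these are 60.0, 64.1, 234 and 269.7 reads, so the libraries with POM stood far above those without. The ratio was 3.91 in POM vs DMSO (95% exact binomial interval 2.79 to 5.50) and 4.21 in ATRA+POM vs ATRA (3.11 to 5.78). These intervals, here and below, cover counting error only. Among regions in all lists its rank by −log10 q-value went from 61.9% and 65.0% in DMSO and ATRA to 94.6% and 96.6% in POM and ATRA+POM. Neither RSAD2 nor CMPK2 had a start peak in any list.

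A region 59.5 kb beyond the CMPK2 gene body (chr2:6780528-6781412) had pileups of 19, 24, 31 and 60 in DMSO, ATRA, POM and ATRA+POM. Its ratios were 4.11 (2.25 to 7.71) in POM vs DMSO and 3.09 (1.89 to 5.18) in ATRA+POM vs ATRA. The next region of CMPK2, 67.3 kb away, had pileups of 86, 76, 34 and 88 and ratios of 0.997 (0.650 to 1.5) in POM vs DMSO and 1.43 (1.04 to 1.97) in ATRA+POM vs ATRA. CMPK2 also marks the 100 kb limit: its farthest peak inside lay 90.4 kb away, and the nearest peak outside 182 kb away.

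SP110 encodes a nuclear body protein that binds chromatin. All of the 6 regions given to it were called in every list, and 3 were higher in both comparisons. Its start region (chr2:230225294-230226142), given to the neighbouring gene SP140, is not among them. That region was called with 10 reads in ATRA and 15 in ATRA+POM and not in DMSO or POM. The region 55.0 kb downstream of its start, inside the gene (chr2:230170190-230171986), had pileups of 18 reads in DMSO, 15 in ATRA, 37 in POM and 56 in ATRA+POM. The ratios were 5.18 (2.88 to 9.67) and 4.61 (2.57 to 8.77). A region 37.9 kb outside the gene body (22, 13, 19 and 45 reads) had ratios of 2.18 (1.11 to 4.22) and 4.27 (2.26 to 8.63). A region 5.63 kb inside the gene start (17, 22, 19 and 36 reads) had ratios of 2.82 (1.39 to 5.77) and 2.02 (1.16 to 3.60). Exons and introns are not told apart here. The other 3 ranged from -0.84 to 0.66 on the log2 scale in POM vs DMSO, so the regions of this gene did not move as a block.

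PLSCR1, a phospholipid scramblase that limits viral entry, had the start region with the largest ratio in POM vs DMSO. Its pileups (chr3:146543526-146545036) were 130 reads in DMSO, 111 in ATRA, 129 in POM and 235 in ATRA+POM, or 130, 127, 325 and 331.8 after scaling. The ratios were 2.50 (1.95 to 3.22) in POM vs DMSO and 2.61 (2.08 to 3.30) in ATRA+POM vs ATRA. The rank among regions in all lists was 75.2%, 75.7%, 97.2% and 97.3% in DMSO, ATRA, POM and ATRA+POM. A second PLSCR1 region 9.97 kb upstream (22, 25, 9 and 23 reads) had ratios of 1.03 (0.418 to 2.33) and 1.14 (0.616 to 2.08).

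HERC6, a HECT-type ligase related to the human ISG15 ligase HERC5, had a start region (chr4:88379066-88379592) with pileups of 61, 51, 54 and 112 reads in DMSO, ATRA, POM and ATRA+POM. The ratios were 2.23 (1.52 to 3.27) and 2.71 (1.93 to 3.85). A region 41.2 kb inside the gene had 42, 17, 19 and 33 reads, with a ratio of 1.14 (0.626 to 2.0) in POM vs DMSO and 2.40 (1.3 to 4.59) in ATRA+POM vs ATRA. The second value rests on the ATRA library, which was low there, with a ratio to DMSO of 0.463 (0.247 to 0.831).

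**Figure D3:**
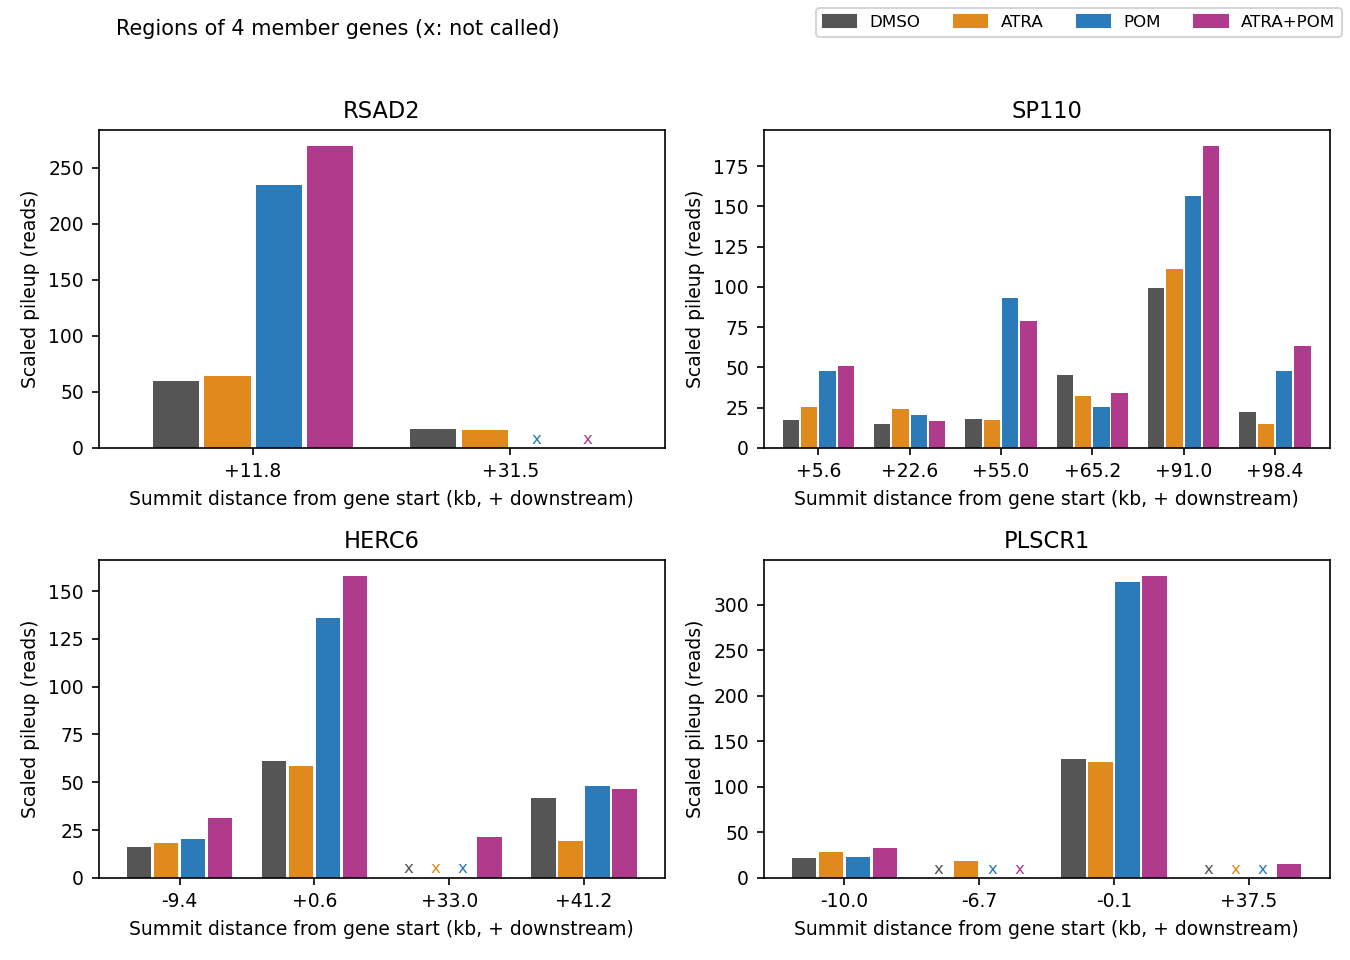
Scaled summit pileup in reads (bars, vertical axis from 0) of every region of RSAD2, SP110, HERC6 and PLSCR1, ordered by the summit's distance from the gene start in kb (horizontal axis), in 1 library per condition, with x where the region was not called. POM and ATRA+POM bars are at least 2-fold above DMSO and ATRA, respectively, at 11.8 kb in RSAD2, at 3 SP110 regions and at the starts of HERC6 and PLSCR1, and by less or not at all at their other regions called in all 4 lists, except that ATRA+POM is also past 2-fold over ATRA at 41.2 kb in HERC6.

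Further regions higher in both comparisons were weaker. IFI16, a nuclear DNA sensor, had a region 6.69 kb downstream of its start with 51, 42, 52 and 76 reads in DMSO, ATRA, POM and ATRA+POM and ratios of 2.57 (1.71 to 3.86) and 2.23 (1.51 to 3.34). IFI6, which encodes a small mitochondrial and endoplasmic reticulum protein, had one 17.8 kb upstream with 10, 12, 11 and 28 reads and ratios of 2.77 (1.07 to 7.28) and 2.88 (1.42 to 6.22). Summits of this IFI6 region were up to 596 bp apart between lists. A stronger IFI6 region 2.76 kb downstream of the gene (chr1:27662908-27663603) lay the other way, with 96, 81, 15 and 38 reads and ratios of 0.394 (0.212 to 0.683) and 0.579 (0.383 to 0.861). IFIH1 encodes MDA5, a sensor of double-stranded RNA, and had one 5.36 kb outside the gene with 14, 10, 12 and 19 reads and ratios of 2.16 (0.913 to 5.03) and 2.34 (1.04 to 5.65). The interval of the first IFIH1 ratio includes 1.

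The IFIH1 start itself (chr2:162317895-162319199) was given to the neighbouring gene GCA and was looked at after its values were seen. It had 131, 111, 88 and 161 reads in DMSO, ATRA, POM and ATRA+POM, or 131, 127, 222 and 227 after scaling. The ratios were 1.69 (1.28 to 2.24) and 1.79 (1.40 to 2.30), under the 2-fold limit.

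Among the signal carriers, STAT2 had the highest −log10 q-value of any member start in each list. Its pileups (chr12:56359647-56360816) were 343, 332, 167 and 311 reads in DMSO, ATRA, POM and ATRA+POM, with ratios of 1.23 (1.01 to 1.48) and 1.16 (0.987 to 1.35). IRF9, its DNA-binding partner, had 166, 128, 41 and 69 reads and ratios of 0.623 (0.431 to 0.881) and 0.665 (0.489 to 0.898). IRF1, a transcription factor induced by interferon gamma, had 229, 225, 85 and 148 reads at its start and ratios of 0.936 (0.721 to 1.21) and 0.812 (0.655 to 1.00). STAT2 and IRF9 therefore differed in direction by this scale, and IRF9 stays below 1 by the scale from gene starts, while IRF1 passes above 1. A region 22.4 kb from IRF1 (33, 30, 25 and 49 reads) had log2 ratios of 0.93 and 1.01.

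In the ISG15 system, ISG15, the ubiquitin-like modifier, had 118, 108, 37 and 70 reads at its start in DMSO, ATRA, POM and ATRA+POM. The ratios were 0.791 (0.531 to 1.15) and 0.800 (0.584 to 1.09), and both pass above 1 by the scale from gene starts. USP18, the protease that removes ISG15 and dampens receptor signalling, had (chr22:18149725-18150513) 84, 71, 18 and 19 reads. Its ratios of 0.540 (0.305 to 0.907) and 0.330 (0.188 to 0.554) made it the lowest member start in ATRA+POM vs ATRA. An inner USP18 region was called at 46, 29 and 14 reads in DMSO, ATRA and ATRA+POM and not in POM.

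The IFIT genes encode proteins that bind viral RNA. Of the 28 member gene-start regions, that of IFIT5 had the lowest ratio in POM vs DMSO (chr10:89413882-89415060), with 207, 185, 38 and 88 reads in DMSO, ATRA, POM and ATRA+POM. Its ratios were 0.463 (0.318 to 0.657) and 0.587 (0.450 to 0.761). IFIT1 had 110, 86, 55 and 70 reads, with log2 ratios of 0.33 and 0.01. IFIT3 had a region inside the gene with 100, 103, 51 and 76 reads and log2 ratios of 0.36 and -0.14. Summits were up to 852 bp apart between lists in the IFIT1 region and 1650 bp in that of IFIT3, so these values compare different points. With that limit, no shared direction was seen in the family.

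OAS proteins make oligoadenylates that activate RNase L. The OAS1 start had 66, 48, 46 and 69 reads in DMSO, ATRA, POM and ATRA+POM and ratios of 1.76 (1.18 to 2.60) and 1.77 (1.21 to 2.62). The OAS2 start had 158, 118, 83 and 136 reads and log2 ratios of 0.41 and 0.51. OASL, which lacks the synthetase activity, had 104, 85, 22 and 45 reads and log2 ratios of -0.91 and -0.61. OAS1 and OAS2 lay above 1 in both comparisons, and OASL below.

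Among the GTPases, the MX2 start had 122, 106, 50 and 106 reads in DMSO, ATRA, POM and ATRA+POM and log2 ratios of 0.05 and 0.30. The MX1 start had 30, 13, 15 and 19 reads and log2 ratios of 0.33 and 0.85, with summits up to 355 bp apart. A region 5.69 kb inside MX1 had 41, 46, 10 and 20 reads and log2 ratios of -0.70 and -0.90.

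BST2 encodes tetherin, which holds budding virus at the membrane. Its start (chr19:17405081-17407367) had 358, 285, 75 and 145 reads in DMSO, ATRA, POM and ATRA+POM and ratios of 0.528 (0.406 to 0.679) and 0.628 (0.511 to 0.770). A second BST2 region, inside the gene, was called in ATRA alone with 73 reads and a deposited fold of 1.82 over the local background. IFITM1 had 46, 31, 13 and 19 reads at its start and log2 ratios of -0.49 and -0.40. A region 10.3 kb from IFITM3 had 82, 56, 15 and 28 reads and ratios of 0.461 (0.247 to 0.806) and 0.617 (0.377 to 0.988). All 3 regions lay below 1 in both comparisons, except that IFITM1 passes above 1 in ATRA+POM vs ATRA by the scale from gene starts.

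DTX3L, the ubiquitin ligase that pairs with PARP9, had 151, 109, 63 and 118 reads at the shared start in DMSO, ATRA, POM and ATRA+POM, with log2 ratios of 0.07 and 0.42. The merged region nearest to PARP14 (84, 64, 14 and 48 reads) had its strongest summit 1.47 kb from the gene and so was not counted among the gene-start regions. Its log2 ratios were -1.25 and -0.11. Its summits were up to 1396 bp apart between lists, so these values compare different points of a broad region.

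Other effector starts covered a wide range. TRIM22, a ubiquitin ligase with antiviral activity, had 46, 22, 25 and 59 reads in DMSO, ATRA, POM and ATRA+POM, with log2 ratios of 0.45 in POM vs DMSO and 1.73 in ATRA+POM vs ATRA. IFI44L had 58, 28, 14 and 55 reads and log2 ratios of -0.72 and 1.28. In both genes the ATRA library was low, with ratios to DMSO of 0.547 (0.313 to 0.928) and 0.552 (0.339 to 0.881). ISG20, an exonuclease, had 270, 233, 148 and 253 reads and ratios of 1.38 (1.12 to 1.69) and 1.34 (1.12 to 1.61). The IFI35 start had 97, 95, 25 and 48 reads and log2 ratios of -0.62 and -0.68. The EPSTI1 start had 123, 115, 34 and 96 reads and log2 ratios of -0.52 and 0.04, so it lay below 0 in the first of them alone.

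**Figure D4:**
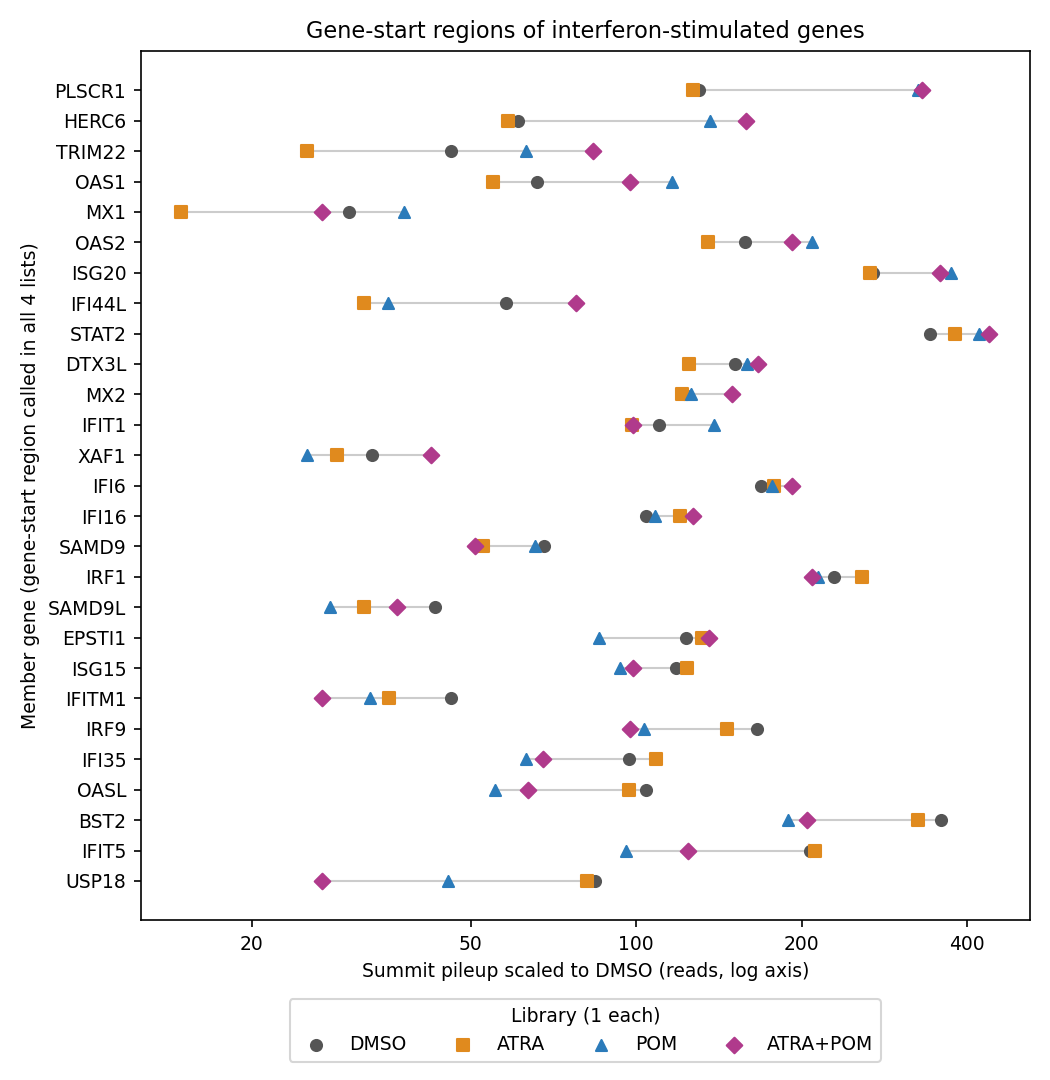
Summit pileup scaled to DMSO, in reads on a log axis, for the 27 member gene-start regions called in all 4 lists, with 1 point per library and genes ordered by the mean of the POM vs DMSO and ATRA+POM vs ATRA log2 ratios. PLSCR1 and HERC6 at the top have POM and ATRA+POM to the right of DMSO and ATRA, and BST2, IFIT5 and USP18 at the bottom have them to the left.

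A few regions were found with POM and not without it, or the reverse. Strong peaks were the 20000 with the highest −log10 q-value in a list. The region 8.62 kb from SAMD9L, which encodes an antiviral and growth-restraining protein, had 38 reads in POM (chr7:93156651-93157298) and 45 in ATRA+POM and overlapped no peak in DMSO or ATRA. It was the single strong member peak gained in POM vs DMSO (1 of 33 strong member peaks, against 2.26%), in ATRA+POM vs DMSO (1 of 32, against 2.52%) and in ATRA+POM vs ATRA (1 of 32, against 3.38%). At the scale between libraries, 38 reads in POM correspond to 95.8 in DMSO, where the smallest pileup called was 8. A region 5.94 kb downstream of IFI6 had 74 and 59 reads in DMSO and ATRA and was not called in POM or ATRA+POM, and was not among the strong peaks that were lost. No strong member peak was lost in POM vs DMSO, against 1.70%, in ATRA+POM vs DMSO, against 0.865%, or in ATRA+POM vs ATRA, against 0.815%.

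In ATRA+POM vs DMSO, which shares a library with each of the other comparisons, 12 of 78 member regions were higher, against 13.8%, and 6 lower, against 9.08%. Of 27 gene starts 2 were higher, PLSCR1 and HERC6, against 1.27%, and 1 lower, USP18, against 21.2%. Of 51 distal regions 10 were higher, against 16.3%, and 5 lower, against 6.67%. With the scale from gene starts these are 21 and 3, beside 28.5% and 2.34% of all regions. The largest log2 ratios were 2.17 in RSAD2, 2.16 near CMPK2 and 2.13 in SP110.

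ATRA alone went with few differences. Against DMSO, 0 of 87 member regions were at least 2-fold higher, against 1.11% of all regions, and 2 were lower, against 0.778%. These were the MX1 start, with a ratio of 0.496 (0.237 to 0.979), and the inner HERC6 region described above. At gene starts this is 0 higher, against 0.0514%, and 1 lower of 28, against 0.832%, and at distal regions 0 higher, against 1.31%, and 1 lower of 59, against 0.768%. Member gene starts had a median log2 ratio of -0.12, with 8 of 28 above 0, beside a median of 0.01 and 52.3% above 0 for all gene starts. No strong member peak was gained, against 0.0450%, or lost, against 0.0750%.

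Adding ATRA to POM gave 3 of 73 member regions at least 2-fold higher, against 3.0%, and 1 lower, against 1.62%. At gene starts 1 of 27 was higher, against 0.654%, and 0 lower, against 1.11%, and at distal regions 2 of 46 were higher, against 3.47%, and 1 lower, against 1.72%. The higher regions were the IFI44L start (2.20, 1.21 to 4.28), a region 14.4 kb from IFI44 (6 against 23 reads, 2.15, 0.850 to 6.44) and a region inside OAS1 (6 against 22 reads, log2 ratio 1.04). The lower region lay 1.10 kb from ISG20, with 51, 27, 17 and 11 reads in DMSO, ATRA, POM and ATRA+POM and a ratio of 0.362 (0.153 to 0.820). The IFI44 start had 27, 20 and 22 reads in DMSO, ATRA and POM and a ratio of 2.05 (1.115 to 3.75) in POM vs DMSO. Its peak in POM (chr1:78649712-78649883) had no counterpart in ATRA+POM and was the single strong member peak lost there, against 0.645%. None was gained, against 0.350%. Over the 69 regions in all lists, 0 were higher and 0 lower by 2-fold in both ATRA comparisons, against 0.121% and 0.0326%, and the same held for the 27 gene starts, against 0.0111% and 0.0444%. Of the regions that moved most the same way in both, the highest lay 3.96 kb from IRF1, with 18, 26, 7 and 23 reads in DMSO, ATRA, POM and ATRA+POM. Its ratios were 1.65 (0.872 to 3.2) in ATRA vs DMSO and 1.84 (0.764 to 5.08) in ATRA+POM vs POM. The SAMD9 start was among the lowest, with 68, 46, 26 and 36 reads and ratios of 0.774 (0.520 to 1.14) and 0.775 (0.455 to 1.34). All 4 of these intervals include 1. The lowest was the region 1.10 kb from ISG20, with a ratio of 0.606 (0.365 to 0.984) in ATRA vs DMSO. With its ratio of 0.362 (0.153 to 0.820) in ATRA+POM vs POM, both of its intervals lie below 1.

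Other genes of interferon signalling, 30 receptors, kinases, transcription factors, sensors and inhibitors, were taken alongside. Their 24 gene-start regions had a median log2 ratio of -0.64 in POM vs DMSO, with 0 at least 2-fold higher, against 1.25% of all gene starts, and 8 lower, against 20.2%. In ATRA+POM vs ATRA, 25 had a median of -0.38, with 0 higher, against 1.34%, and 2 lower, against 17.9%. These lie near the medians of all gene starts, where those of the members lay near 0. Base composition differs between these lists, since 22 of the 30 had a promoter in the table, with a median GC of 65.2% against 54.0% for members, and its part in the difference was not tested. The kinases JAK1, JAK2 and TYK2, and the sensor genes from RIGI to IKBKE (10 of 10), had start peaks in every list. RIGI, which encodes an RNA sensor related to MDA5, had unscaled start pileups of 97, 97, 69 and 154 reads in DMSO, ATRA, POM and ATRA+POM. Its ranks by −log10 q-value were 85.6%, 88.3%, 93.5% and 97.1%, so it stood higher in the libraries with POM, unlike the median of these genes. The receptor gene IFNAR1 had 277, 275, 36 and 120 reads, also unscaled, and ranks of 96.3%, 97.9%, 77.8% and 94.0%. Raw reads overstate a fall in POM and ATRA+POM, whose scales to DMSO were 0.397 and 0.708.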

How the data were processed

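The 4 libraries were grouped by the treatment label, with 1 library per group. The submitters' processing notes name hg38. Which aligner and peak caller were used, and whether reads were shifted for the transposase offset, which moves a summit by a few bases, is not given in the sources used here. For each library the authors deposited peaks and summits, called per library. A deposited score equals 10 times the −log10 q-value without its decimals. The deposited fold relates summit pileup to local background as a ratio. Both the −log10 p-value and the −log10 q-value deposited by the authors refer to summits. Summit offsets within each peak are the other deposited column.

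Outside chromosomes 1 to 22 and X, 5 peaks were left out. Fold and p-value were solved jointly for a whole-number pileup, assuming that the caller used a Poisson tail. The result returned each p-value to within 0.01 on the −log10 scale for 99.6%, 99.7%, 99.98% and 99.8% of peaks in DMSO, ATRA, POM and ATRA+POM. Peaks overlapping by 1 bp were merged across lists, and the highest pileup per list was divided by the scale between libraries. The interval of a ratio is the exact (Clopper-Pearson) binomial interval at 95%. The peak lists hold no molecular identifiers, so copies of a read cannot be told apart and the interval covers counting error only. Gene starts came from RefSeq (GRCh38.p14) for 15812 of 19974 protein-coding genes. For genes without one, among them 9 members (IFIT2, MX2, OAS2, OASL, IRF7, USP18, TRIM22, LY6E and IFITM2), either gene boundary served. The code was tested on simulated data. Python 3.11.15, pandas 2.3.3 and scipy 1.17.1 were used.

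The members, lists and comparisons were chosen with earlier results of these data known. Values in all libraries were given for member starts past 2-fold, the 5 strongest regions, the 8 regions that moved most the same way in both POM comparisons and 6 in both ATRA comparisons, and strong gained or lost regions. Further members are named as examples of their group and were chosen after their values were seen. Alternatives were another fold, scale, region definition, rank measure, distance, list length and q-value threshold.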

Additional observations from a re-analysis of the deposited data

How the results depend on the processing

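No paired analysis was possible because each group has 1 library, and for the same reason no library could be left out of a group. Counts of member peaks and of gene-start peaks stayed within 1.5 times with a distance of 10 kb, with lists of equal length and with a −log10 q-value of at least 5, as did gene-start peaks with a window of 250 bp or any peak over a member start. So did counts of higher and lower regions when summits within 250 bp defined a region or any region over a member start was taken. With a 1.5-fold limit the counts were 4 higher and 5 lower in ATRA vs DMSO (all regions 7.23% and 5.80%), 17 and 14 in POM vs DMSO (25.8% and 21.5%), 14 lower in ATRA+POM vs DMSO (21.6%), 17 lower in ATRA+POM vs ATRA (21.6%), and 8 and 4 in ATRA+POM vs POM (12.8% and 9.73%). With the scale from gene starts they were 17 and 0 in POM vs DMSO (28.4% and 2.15%), 21 and 3 in ATRA+POM vs DMSO (28.5% and 2.34%), and 23 and 1 in ATRA+POM vs ATRA (26.5% and 1.76%), since that scale raises every ratio of these comparisons. With a rank shift of 20 points in place of the pileup, 6 were lower in ATRA vs DMSO (3.64%), 11 lower in POM vs DMSO (14.8%), 7 lower in ATRA+POM vs ATRA (15.6%), and 5 higher and 3 lower in ATRA+POM vs POM (8.63% and 8.77%), and the cause was not tested.

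Strong gained or lost member peaks were few under every definition. With the top 10000 peaks the single SAMD9L gain was 0 in POM vs DMSO, ATRA+POM vs DMSO and ATRA+POM vs ATRA (all strong peaks 0.72%, 0.78% and 1.07%), and the single IFI44 loss in ATRA+POM vs POM was 0 (0.22%), since fewer peaks enter. With the top 30000, losses were 2 in POM vs DMSO (6.16%), 1 in ATRA+POM vs DMSO (3.14%) and 1 in ATRA+POM vs ATRA (2.92%). When absence meant no summit within 250 bp, gains and losses were 2 and 2 in ATRA vs DMSO (3.13% and 3.17%), 3 and 1 in POM vs DMSO (7.45% and 6.85%), 4 and 3 in ATRA+POM vs DMSO (6.81% and 5.29%), 4 and 2 in ATRA+POM vs ATRA (8.45% and 5.68%), and losses were 3 in ATRA+POM vs POM (3.95%).

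Depth limits what an absent peak means. Of 44 member regions missing from the POM list, 18 had an expected pileup, from another list and the scale, of at least 2 times the smallest pileup called there, and of 32 missing from DMSO, 19 did. The rest were not detectable with confidence at this depth.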
